A study of Mus musculus with 8 samples.

Results

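The genes described here encode the subunits of SAGA and ATAC other than Gcn5 itself, in mouse gastrocnemius with or without Gcn5 in its fibres. SAGA and ATAC are transcriptional coactivator complexes that are built around the same lysine acetyltransferase, Gcn5, which acetylates histone H3 and other proteins. SAGA also holds a deubiquitinase that removes ubiquitin from histone H2B, a core that resembles part of the general factor TFIID, and the activator-binding protein Trrap. ATAC holds a different adaptor and a core of its own, which includes a further acetyltransferase-like subunit and histone-fold proteins. A list of 31 subunits was read from the array annotation by symbol, and all 31 had a transcript cluster (the array's unit for a gene) annotated to that gene alone. They stand among 19938 genes measured. In all, 22 belong to SAGA and 11 to ATAC, and 2 of these, Tada3 and Sgf29, belong to both.

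Muscle came from 8 male mice aged 6 months, fed chow and fasted for 5 h, with 1 Affymetrix array per animal. The 4 knockout animals (Gcn5skm-/-) carried the floxed alleles Gcn5 L2/L2 and HSAcre Tg/0, a Cre transgene under the promoter of human skeletal actin, a gene of muscle fibres. The 4 wild-type animals (Gcn5skm+/+) carried the same floxed alleles without Cre, which is written HSAcre 0/0. Effects of Cre and of the deletion therefore cannot be told apart, and other cells of the muscle keep the gene. Values are log2 expression values made by the authors, and every difference is knockout minus wild type. In a whole-tissue sample, fewer cells of a type and less RNA per cell cannot be told apart.

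Muscle fibre markers such as Acta1, Ckm and Myh4 were bright on every array, with list means of 11.6 to 12.1 in knockout and 11.9 to 12.0 in wild-type muscle. Slow-fibre markers varied widely between animals of both genotypes, with list means of 5.40 to 8.95 in knockouts and 6.15 to 8.31 in wild types. The macrophage list averaged 5.99 to 6.79 in knockouts and 5.78 to 5.95 in wild types. Of its markers, 11 of 11 were higher on average in knockouts, with 0 past a 5% false discovery rate and 6 at an unadjusted p under 0.05 (limma). Over all genes 45.3% were higher on average and 5.73% met that limit, 2.34% as higher. The macrophage markers Gpnmb, Cd68 and Lgals3 measured 9.09, 7.35 and 7.75 in knockout 4. In the other knockouts they measured 5.32 to 6.59, 5.70 to 6.18 and 6.04 to 6.47. Csf1r and C1qa were instead lowest in knockout 4 among the knockouts. What part the slow-fibre and macrophage lists had in the subunit values was not tested. Wild type 2 stood apart from the other 7 arrays, scoring 32.2 on the leading principal component (29.8% of variance) where they scored -11.6 to 7.27. The subunit results below are therefore also given without it where that matters.

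Sequences upstream of the transcription start show what kind of promoter these genes have. RefSeq (GRCm38.p6) gave 39 promoter windows for 27 of the 31 genes, and the 250 bases before each start were read. Their median GC content was 63.2%, against 52.4% over 32851 promoters of the same table. The ratio of observed to expected CpG had a median of 0.842, against 0.373 over all promoters. The SP/KLF box GGGCGG, searched on both strands like every motif here, lay in 25 of 39 windows (64.1%, against 32.7% of all promoters). The ETS motif CCGGAAG lay in 7 of them (17.9%, against 6.91%). TATAAA was found in 1 window, that of Sf3b3 (2.56%, against 12.4%), and CCAAT in 5 (12.8%, against 33.8%). The palindromic NRF1 motif lay in 1 window, that of Supt3 (2.56%, against 0.782%), and neither AAGATGGCG (YY1) nor TGACGTCA (CRE) was found. These matches are letters in a window and were not tested as binding sites.

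Windows of 3 genes are shown because Supt3 and Tada2a had the lowest and the highest difference of the 31 genes, and Tada2b is the SAGA counterpart of Tada2a. They were chosen after the values were seen. Each runs 5′ to 3′ on the gene's strand and ends at the base before the start, and capitals mark the motifs just named. Supt3 lies on the plus strand (chr17:44776916-44777165), Tada2a on the minus strand (chr11:84129569-84129818) and Tada2b on the minus strand (chr5:36484286-36484535).
Supt3: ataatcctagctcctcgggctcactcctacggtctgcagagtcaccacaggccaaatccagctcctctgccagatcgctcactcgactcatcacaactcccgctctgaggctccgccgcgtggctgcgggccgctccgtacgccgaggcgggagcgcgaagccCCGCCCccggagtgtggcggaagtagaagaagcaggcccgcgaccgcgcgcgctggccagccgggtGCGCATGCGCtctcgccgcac
Tada2a: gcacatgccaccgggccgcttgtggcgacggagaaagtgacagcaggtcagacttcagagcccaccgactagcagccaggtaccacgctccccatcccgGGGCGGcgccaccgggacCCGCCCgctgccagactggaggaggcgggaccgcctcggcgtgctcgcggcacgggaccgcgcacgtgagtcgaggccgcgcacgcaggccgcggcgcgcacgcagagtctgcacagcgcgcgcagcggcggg
Tada2b: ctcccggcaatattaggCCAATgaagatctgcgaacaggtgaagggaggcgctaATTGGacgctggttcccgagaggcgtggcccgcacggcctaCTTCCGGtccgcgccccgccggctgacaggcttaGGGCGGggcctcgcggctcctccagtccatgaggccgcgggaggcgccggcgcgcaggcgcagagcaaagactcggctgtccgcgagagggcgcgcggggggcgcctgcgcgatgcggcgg
The Supt3 window holds the NRF1 motif and an SP/KLF box, the Tada2a window a pair of SP/KLF boxes, and the Tada2b window an ETS motif, an SP/KLF box and a pair of CCAAT boxes.

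The comparison asks whether muscle that lacks Gcn5 in its fibres makes different amounts of the transcripts of Gcn5's partners. Kat2a, which encodes Gcn5, measured 5.81, 5.84, 5.79 and 5.73 in knockouts 1 to 4, against 6.50, 6.46, 6.45 and 6.42 in wild types 1 to 4. The groups did not overlap, and the difference was -0.66 (SE 0.08, limma adjusted p = 0.0319), a level of 63.1% of wild type with a 95% interval of 56.1% to 70.9%. The difference stayed between -0.68 and -0.64 when 1 array was left out, but the call was lost without any 1 of the 4 knockouts, without wild type 3 or without wild type 4 (limma adjusted p from 0.0619 to 0.137). It was also lost with all 35556 deposited clusters in the fit (limma adjusted p = 0.0660). Where its probes lie relative to the floxed exons is not known here. Kat2b, which encodes the paralog PCAF that can take Gcn5's place in these complexes, measured 6.31 ± 0.06 in knockouts and 6.43 ± 0.13 in wild types (SD, n = 4 each). That difference of -0.12 did not pass (limma adjusted p = 0.880).

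Of the 31 partner genes, 0 passed a 5% false discovery rate in limma, where 0.015% of all genes passed. At an unadjusted p under 0.05 there was 1 member, Supt3, which was lower in knockouts. That is 1 of 31 (3.23%), and 5.73% of all genes met the same limit in either direction, 3.39% as lower and 2.34% as higher. Differences ran from -0.27 to 0.13 with a median of -0.02 (-0.01 over all genes). They were below 0 for 19 members and above 0 for 12, and of all genes 54.7% were below 0 and 45.3% above. A difference of 0.1 or more in size was found for 8 of 31 members (25.8%), against 40.5% of all genes. By complex it was found for 6 of 11 ATAC genes (54.5%) and 2 of 22 SAGA genes (9.09%). Without wild type 2 there were 7 such members, of which 3 belong to ATAC (Tada2a, Mbip and Pole4). The share of all genes at that size was not counted without that array. Only Supt3 differed by 0.2 or more in size, 1 of 31 members, against 11.6% of all genes.

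The intervals show how large a change these arrays could have missed. The 95% interval of each of the 31 members lay within 0.5 log2 units of 0, as it did for 90.7% of all genes. As a share of the wild-type level, the lowest bound was 71.0% (Supt3) and the highest 128% (Tada2a). All 31 intervals therefore lay above the Kat2a difference, as did those of 98.7% of all genes. The narrowest was 0.35 log2 units wide (Supt7l) and the widest 0.59 (Zzz3). Array values summarised by RMA tend to understate differences, so the bounds apply to this scale.

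**Figure D1:**
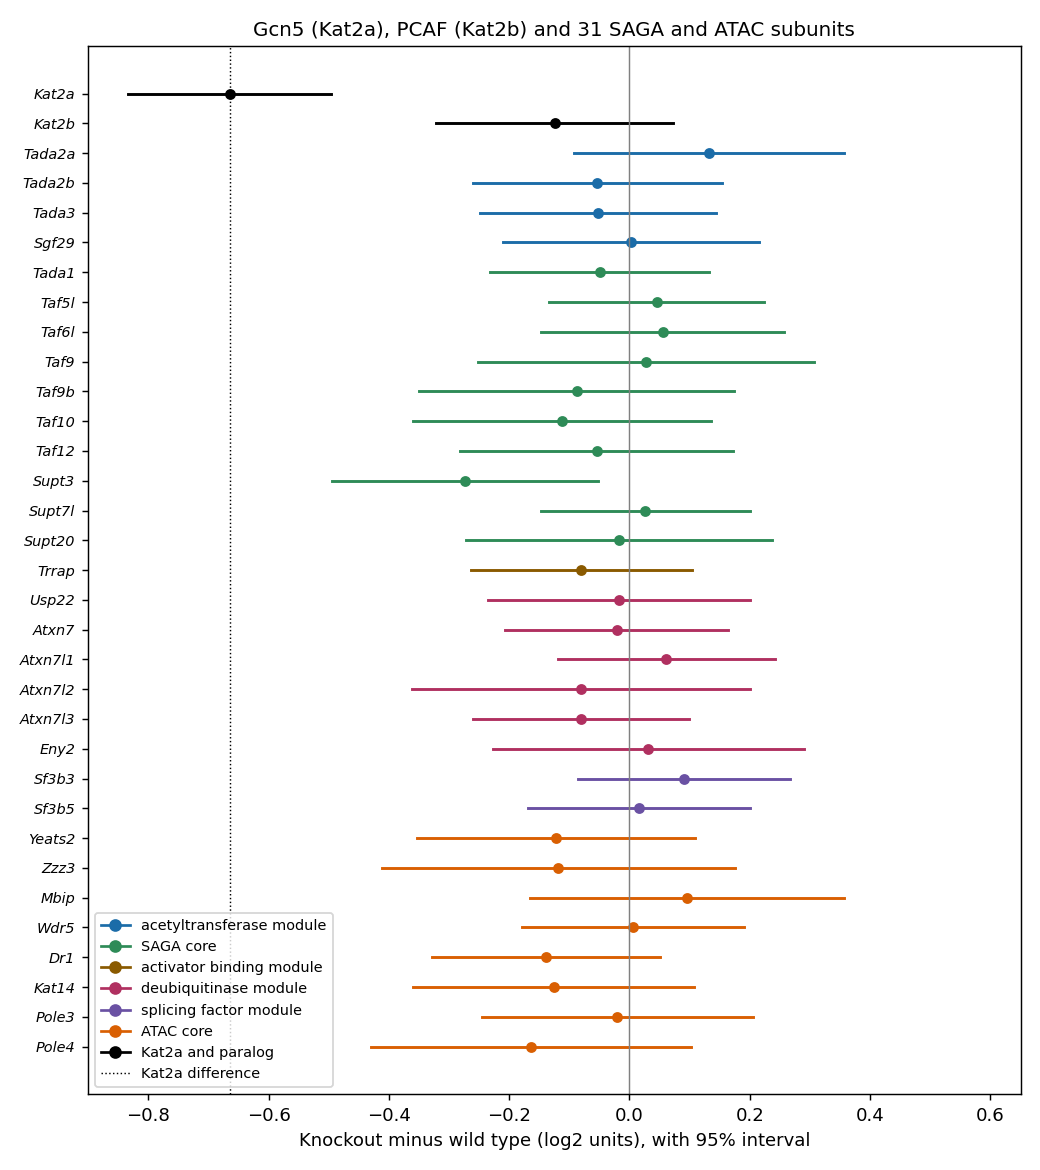
Knockout minus wild type difference (log2 units, horizontal axis) for Kat2a, its paralog Kat2b and 31 SAGA and ATAC subunits, with points for the limma estimate and lines for its 95% interval (n = 4 arrays per genotype). Kat2a lies at -0.66 (dotted line), and all 31 subunit intervals lie to its right, with Supt3 at -0.27 the subunit whose interval does not reach 0.

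Gcn5 sits in an acetyltransferase module with 3 adaptors in each complex. Tada2a, the adaptor of ATAC, measured 6.59, 6.37, 6.33 and 6.59 in knockouts, against 6.52, 6.37, 6.17 and 6.30 in wild types. The groups overlapped, and the difference of 0.13 (SE 0.10) did not pass (limma adjusted p = 0.900). Tada2b, which takes the same place in SAGA, measured 6.34, 6.38, 6.30 and 6.49 in knockouts, against 6.33, 6.44, 6.32 and 6.64 in wild types. Its difference was -0.05 (95% interval -0.26 to 0.15). Tada3, an adaptor of both complexes, averaged 5.99 ± 0.09 in knockouts and 6.04 ± 0.11 in wild types. Sgf29, whose tudor domains bind methylated histone H3, averaged 6.95 ± 0.06 in knockouts and 6.95 ± 0.17 in wild types, a difference of 0.0025 with an interval of -0.21 to 0.22.

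Supt3, a histone-fold subunit of the SAGA core that contacts the TATA-binding protein in the yeast complex, measured 7.41, 7.31, 7.11 and 7.40 in knockouts, against 7.70, 7.70, 7.44 and 7.49 in wild types. Every knockout lay below every wild type, with 7.41 as the highest knockout and 7.44 as the lowest wild type. The difference was -0.27 (SE 0.10, 95% interval -0.49 to -0.05), or 82.7% of the wild-type level. It did not pass over all genes (limma unadjusted p = 0.0196, adjusted p = 0.859). An exact two-sided permutation test gave 0.0286, the smallest value that 4 against 4 arrays allow. Groups did not overlap for 1 of 31 members (3.23%) and for 3.62% of all genes, of which 2.14% were lower and 1.48% higher in knockouts. The unadjusted p was 0.0707 without knockout 3, which had the lowest value, and 0.0588 without wild type 1 (limma).

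**Figure D2:**
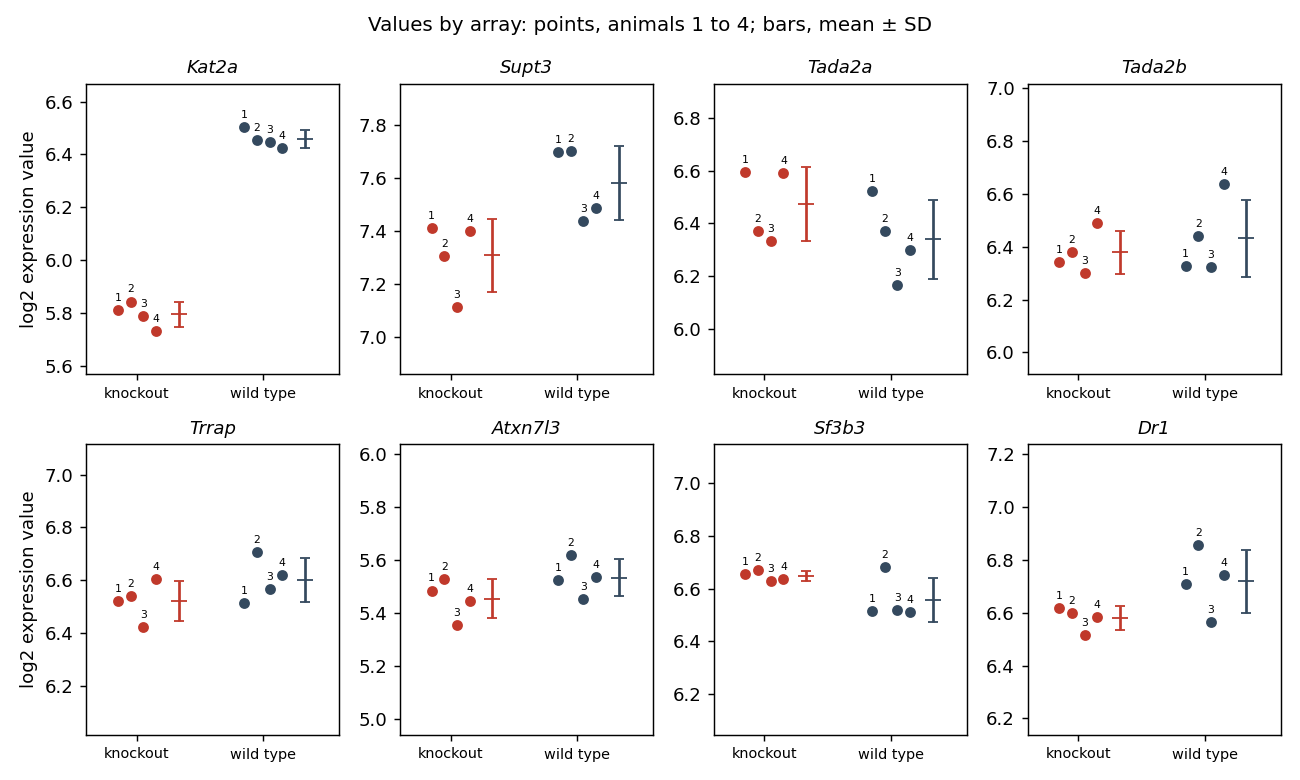
Log2 expression values of Kat2a, Supt3, Tada2a, Tada2b, Trrap, Atxn7l3, Sf3b3 and Dr1 in each array (vertical axes span the same number of log2 units), with numbered points for animals 1 to 4 of each genotype and bars for the mean ± SD. Knockouts and wild types are apart for Kat2a and, by a narrow margin (7.41 against 7.44), for Supt3, and overlap for the other genes shown.

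The other members of the SAGA core spread to both sides of 0. Supt7l, the histone-fold partner of Taf10 in SAGA, varied little between animals, with 6.47 to 6.66 in knockouts and 6.51 to 6.57 in wild types (difference 0.03). Supt20, a scaffold subunit, differed by -0.02 and Tada1, a histone-fold adaptor, by -0.05. Taf5l and Taf6l, the SAGA versions of TFIID subunits Taf5 and Taf6, differed by 0.04 and 0.06. These values all lay within their own standard errors of 0, which were 0.08 to 0.12.

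The core shares several subunits with TFIID, the general factor that binds core promoters. Taf12 averaged 6.38 ± 0.17 in knockouts and 6.44 ± 0.11 in wild types. Taf9b averaged 8.32 ± 0.21 in knockouts and 8.40 ± 0.18 in wild types, a difference of -0.09. Its paralog Taf9 measured 7.44, 7.49, 7.39 and 7.56 in knockouts, against 7.28, 7.87, 7.25 and 7.38 in wild types. Wild type 2 was the highest of the 8 arrays, and the difference was 0.03 with it and 0.17 without it. RefSeq lists a pseudogene of Taf9, and which copy the probes of this cluster read is not known here. Taf10 averaged 7.55 ± 0.11 in knockouts and 7.66 ± 0.22 in wild types (difference -0.11), and a dimmer cluster for the same gene differed by -0.02.

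Trrap, the large pseudokinase that transcriptional activators bind and that SAGA shares with the TIP60 acetyltransferase complex, measured 6.52, 6.54, 6.42 and 6.60 in knockouts, against 6.51, 6.71, 6.57 and 6.62 in wild types. The groups overlapped, with a difference of -0.08 (95% interval -0.26 to 0.10). A dimmer Trrap cluster differed by 0.03, with means of 5.39 ± 0.08 in knockouts and 5.36 ± 0.16 in wild types.

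The deubiquitinase module differed by less than 0.1 in all 6 members. Usp22, its catalytic subunit, averaged 6.78 ± 0.05 in knockouts and 6.80 ± 0.18 in wild types. Atxn7l3, which activates Usp22, measured 5.48, 5.53, 5.36 and 5.45 in knockouts, against 5.53, 5.62, 5.45 and 5.54 in wild types (difference -0.08, limma adjusted p = 0.926). Eny2, a small subunit that also serves in the mRNA export complex TREX-2, averaged 7.59 ± 0.09 in knockouts and 7.56 ± 0.25 in wild types. Its difference of 0.03 was 0.15 without wild type 2, where it measured 7.92 against 7.39 to 7.47 in the other wild types.

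Ataxin-7 family members anchor the deubiquitinase to SAGA. Atxn7 itself differed by -0.02, with 6.88 to 7.12 in knockouts and 7.00 to 7.13 in wild types. Atxn7l2 differed by -0.08, with 5.18 to 5.49 in knockouts and 5.06 to 5.72 in wild types. For Atxn7l1 the clusters disagreed in sign, since the brighter differed by 0.06 and the dimmer by -0.13, where knockouts measured 5.88, 6.14, 5.90 and 5.79 and wild types 5.95, 6.25, 5.88 and 6.14. Groups overlapped in both clusters.

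SAGA also carries Sf3b3 and Sf3b5, which are better known as parts of the SF3b splicing factor. Sf3b3 measured 6.66, 6.67, 6.63 and 6.64 in knockouts, against 6.52, 6.68, 6.52 and 6.51 in wild types. Wild type 2 was the highest array and the other wild types lay below every knockout, so the groups overlapped through that array alone. The difference was 0.09 (limma adjusted p = 0.912) and 0.13 without wild type 2. Sf3b5 averaged 5.59 ± 0.04 in knockouts and 5.58 ± 0.11 in wild types.

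The core of ATAC had the lowest median difference of the modules with several members, at -0.12, with 6 of 8 genes below 0. Pole4, a histone-fold protein that is also a small subunit of DNA polymerase epsilon, measured 7.49, 7.29, 6.99 and 7.39 in knockouts, against 7.49, 7.61, 7.20 and 7.50 in wild types (difference -0.16, limma adjusted p = 0.887). Its partner Pole3 differed by -0.02. Dr1, the histone-fold subunit that also forms the repressor NC2, measured 6.62, 6.60, 6.52 and 6.58 in knockouts, against 6.71, 6.86, 6.57 and 6.74 in wild types (difference -0.14, limma adjusted p = 0.876). Groups overlapped for each of these genes.

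Kat14, the acetyltransferase-like subunit, measured 6.57, 6.89, 6.89 and 6.74 in knockouts, against 6.75, 7.03, 6.77 and 7.05 in wild types (difference -0.13). Yeats2, whose YEATS domain reads acylated histone H3, and Zzz3, which has a zinc finger and a Myb-like domain, both differed by -0.12. Wdr5, a scaffold that also serves the MLL histone methyltransferases, differed by 0.0060, with 5.94 to 6.18 in knockouts and 6.06 to 6.13 in wild types. Mbip, named for binding the kinase MUK, measured 5.73, 5.79, 5.64 and 5.81 in knockouts, against 5.54, 6.02, 5.59 and 5.43 in wild types (difference 0.10).

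With any array other than wild type 2 left out, the median of the ATAC core ran from -0.17 (without wild type 3) to -0.07 (without knockout 1). It moved most without wild type 2. In that array Zzz3 measured 7.44, Mbip 6.02 and Yeats2 5.97, against highest values of 7.13, 5.59 and 5.60 in the other wild types. Without it the median of the 8 genes was -0.0056, with 4 of 8 below 0, against -0.013 and 54.4% over all genes. Mbip then differed by 0.22 (limma unadjusted p = 0.0241, adjusted p = 0.690). In that fit 2 of 31 members, Mbip and Supt3, had an unadjusted p under 0.05 (limma), as did 1396 of 19938 genes. Of the 31 members, 0 passed a 5% false discovery rate.

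The same array was the highest of the 8 for 19 of 31 members (61.3%), and for 24.6% of all genes. In wild type 2 the members lay a median of 0.16 above their own means over the 8 arrays, while the medians of the other 7 arrays ran from -0.08 to 0.04. Over all genes the median deviation of wild type 2 was 0.01. Knockout 3 was the lowest array for 11 members, and for 12.7% of all genes. By complex, the median difference was -0.02 for the 22 SAGA genes and -0.05 for the 11 ATAC genes. Without wild type 2 both medians were 0.01, and 13 of 31 members were below 0. Without knockout 3 they were 0.02 for SAGA and -0.03 for ATAC, with 15 of 31 members below 0. Without wild type 3 they were -0.05 for SAGA and -0.10 for ATAC, with 24 of 31 members below 0. Over all genes the median was -0.01 in each of these fits, with 54.0% to 54.4% below 0.

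**Figure D3:**
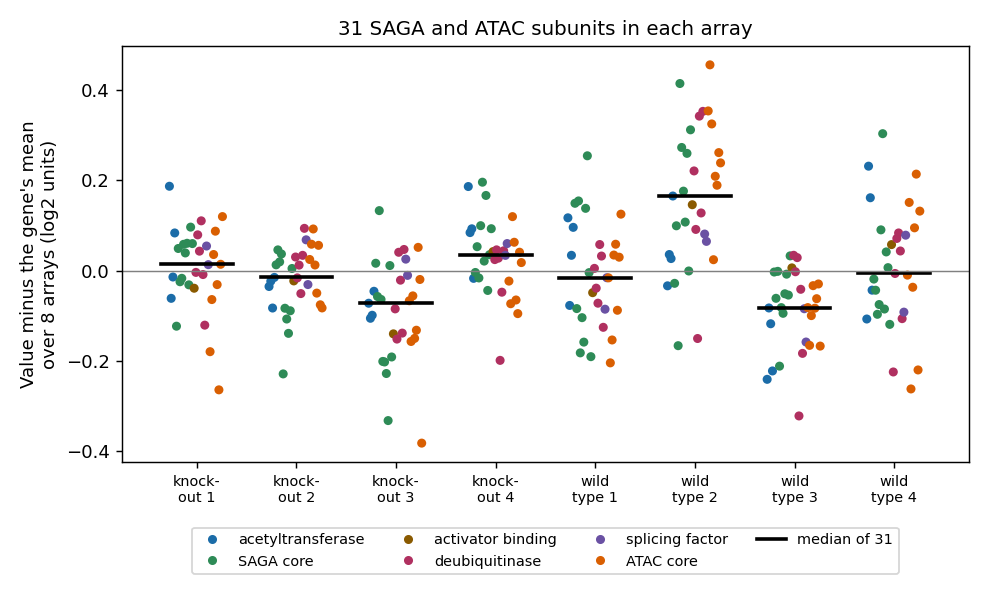
Each point is 1 of the 31 subunits in 1 array, as its log2 value minus the gene's mean over the 8 arrays, coloured by module, and black lines mark the median of the 31. Wild type 2 has the highest median (0.16), and the 4 knockouts (medians -0.07 to 0.04) lie within the range of the wild types (-0.08 to 0.16). The upper end of that range is wild type 2 alone. The other wild types have medians of -0.08 to -0.0064, and knockouts 1 (0.01) and 4 (0.04) lie above them.

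**Figure D4:**
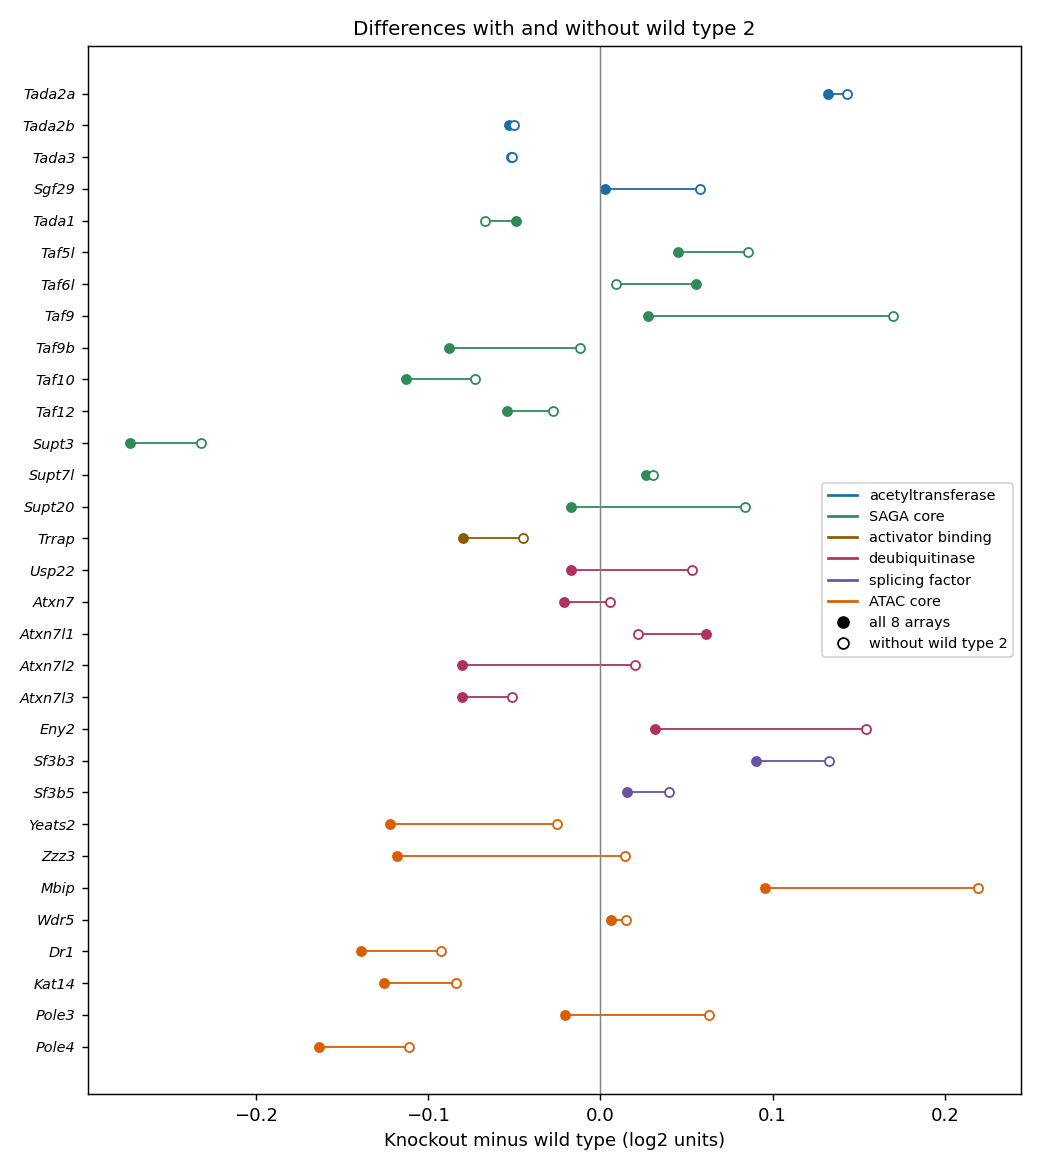
Knockout minus wild type difference (log2 units) of each subunit with all 8 arrays (filled points) and without wild type 2 (open points), coloured by module. Supt20, Usp22, Atxn7, Atxn7l2, Zzz3 and Pole3 cross 0, and Supt3 stays the lowest, at -0.27 with and -0.23 without that array.

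The spread between animals, wild type 2 included, was narrower in knockouts than in wild types for 24 of 31 members (77.4%), and for 67.6% of all genes. The median SD over the 31 members was 0.08 in knockouts and 0.15 in wild types, and it was 0.11 in the wild types without wild type 2. Over all genes the median SD was 0.11 in knockouts and 0.16 in wild types, and it was 0.13 in the wild types without wild type 2. All 4 knockouts lay inside the range of the wild types, wild type 2 included, for 14 of 31 members (45.2%), and for 32.3% of all genes.

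Other subunits of the complexes that share a member with SAGA or ATAC were read from the same fit, and 0 of 56 passed a 5% false discovery rate. At an unadjusted p under 0.05 there was 1 lower and 1 higher gene, which is 2 of 56 (3.57%), against 5.73% of all genes. The median difference was -0.02, with 32 of 56 below 0 (57.1%, against 54.7% of all genes). The lower gene was Taf5, the TFIID scaffold whose place Taf5l takes in SAGA. Taf5 measured 4.45, 4.56, 4.33 and 4.59 in knockouts, against 4.83, 5.06, 4.41 and 4.87 in wild types. Its difference of -0.31 (limma adjusted p = 0.861) stood beside 0.04 for Taf5l. The groups overlapped through wild type 3.

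The higher gene was Pole, the catalytic subunit of DNA polymerase epsilon, which measured 4.24, 4.46, 4.41 and 4.51 in knockouts, against 3.78, 4.06, 4.47 and 3.71 in wild types (difference 0.40, limma adjusted p = 0.859). Below 0 were 9 of 12 TFIID genes and 7 of 16 TIP60 genes, and 54.7% of all genes. These counts were not tested. Pole and Taf5 were dim, at percentiles 33.8 and 42.8 of brightness over all genes. Taf7 differed by -0.14 and Taf11 by 0.14. Kat5, the acetyltransferase of TIP60, averaged 6.24 ± 0.08 in knockouts and 6.41 ± 0.16 in wild types, with 6.297 as the highest knockout and 6.298 as the lowest wild type, and did not pass (difference -0.17, limma adjusted p = 0.876).

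The other partner lists follow the remaining shared subunits. The SF3b genes apart from Sf3b3 and Sf3b5 had a median difference of -0.01 over 5 genes, with Sf3b1 at -0.13. The MLL genes had -0.04 over 9 genes, with Kmt2d at -0.13 and Setd1b at 0.13. The TREX-2 genes had 0.01 over 5 genes, with Cetn2 at 0.19. In the chromatin remodelling complex CHRAC, where Pole3 pairs with Chrac1, Smarca5 differed by -0.22 and Chrac1 by -0.03. Drap1, the partner of Dr1 in NC2, differed by 0.14 where Dr1 differed by -0.14, and neither passed. Without wild type 2 Dr1 differed by -0.09. That array was the highest wild type for Smarca5 (7.51, against 6.63 to 7.05) and Sf3b1 (8.27, against 7.83 to 8.02). It was the lowest for Drap1 (7.69, against 7.93 to 8.10). Differences of partner genes were not read without it. Usp27x, a deubiquitinase that uses Atxn7l3 and Eny2 outside SAGA, averaged 4.25 ± 0.09 in knockouts and 4.00 ± 0.30 in wild types (difference 0.25, limma adjusted p = 0.869), and Atxn7l3b, which competes for Eny2, differed by -0.05.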

How the data were processed

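Gene expression was measured in gastrocnemius RNA of 8 mice, 4 per genotype, on 1 array each. Per the labels' protocols, 100 ng of total RNA was amplified and 5500 ng of cDNA was labelled. The deposited log2 values came from the authors, whose processing notes name RMA and Affymetrix Expression Console, with versions and settings not given in the sources used here. Scan dates and slides are not used here. Precision is limited by how many arrays there are. Array medians over the 35556 deposited clusters lay between 4.61 and 4.72.

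Clusters annotated to 1 gene (21789 of 23410 listed) were used, with the highest-mean cluster per gene, which left 19938 genes and no filter on dim ones. All 31 members lay above the median brightness. The partner genes Pole, Taf5, Taf7 and Usp27x lay below it, at percentiles 33.8, 42.8, 32.5 and 32.2. Of the members, 28 had 1 such cluster and 3 had several, and a further Taf9 cluster shared with another gene was left out. A linear model per gene (limma 3.58.1, R 4.3.3, lmFit then eBayes) gave each knockout minus wild type difference, and p-values were adjusted by Benjamini-Hochberg over the 19938 genes, with calls at 0.05. Exact permutation tests used scipy 1.17.1, and figures matplotlib 3.10.9. The median SE over all genes was 0.105.

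On simulated data (20 runs over 19938 genes with 200 changed), limma called 2.1% of genes changed by 0.25 log2 units, 44.2% at 0.5 and 92.9% at 1, and 94.8% of intervals of unchanged genes held 0. The simulated noise was normal and independent between genes, with 1 spread per gene for both genotypes. No simulated array stood apart as wild type 2 does, so these shares may not hold for the real arrays. The members, partner lists and alternatives were chosen with earlier results of these data known. Values per array are given for Kat2a, for members with an unadjusted p under 0.05 or separated groups and for the smallest p in each module. Other members given array by array (Tada2b, Taf9, Pole4, Kat14, Mbip and the dimmer Atxn7l1 cluster) were added after their values were seen. From each partner list at most 3 genes were named. Alternatives were other normalizations, filters on dim genes, cluster choices, variance models, array weights, a replicate block and leaving out arrays. Leaving out wild type 2 with knockout 4, and the dimmest cluster per gene, were added after the data were seen.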

Additional observations from a re-analysis of the deposited data

Results flagged for a closer look

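Among 64 groups of 4 arrays (31 members and Kat2a in each genotype), 6 held an array far from the other 3, judged by its gap as a share of the group's range, and chance flags about 1 in 20 groups. Wild type 2 stood above the other wild types for Eny2 (7.92), Sf3b3 (6.68) and Yeats2 (5.97). Tada1 measured 5.72 in knockout 1, below the other knockouts, and 5.99 in wild type 1, above the other wild types. Taf5l measured 5.38 in knockout 3, below the other knockouts. The cause of these values was not tested.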

How the results depend on the processing

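Under 20 alternatives 0 of the 31 members passed a 5% false discovery rate in limma, and the smallest adjusted p was 0.608 (Supt3 without wild type 3). Supt3 differed by -0.32 to -0.21, with an unadjusted p under 0.05 in 18 of 20 alternatives (limma). Some of these cannot move the difference of a gene with 1 cluster, such as Supt3, and change only its p-value. They are the filters on dim genes, the cluster choices, the variance model and the replicate block. The number of members under that limit was 0 to 2 when 1 array was left out, with 0 without knockout 3 or wild type 1. In those fits 836 to 1523 of 19938 genes were under it. Kat2a differed by -0.68 to -0.64 and passed in 11 of 20 alternatives (adjusted p from 0.00916 to 0.137). The number of genes past the threshold, 3 in all, was 11 and 13 without the dimmest 25% and 50% of genes, 17 with a trend and robust prior, 0 with all deposited clusters, 1 without wild type 2 and knockout 4, and 0 to 5 when 1 array was left out. With the replicate number as a block it was 0, and 0 members passed. The labels give the genotypes the same numbers but no shared litter or day, so the numbers are not taken as pairs. Same-numbered arrays deviated together with correlations of 0.09, 0.07, 0.22 and -0.10, and differently numbered arrays with correlations of -0.23 to 0.12.

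For 14 members the sign held in every alternative, including those that cannot move a difference. For 17 members with differences of at most 0.12 in size the sign changed. The cause was not tested. After quantile normalization Supt20, Usp22 and Atxn7 differed by 0.0019, 0.0023 and 0.0053, and after cyclic loess Usp22 and Atxn7 by 0.0076 and 0.0081. After median centring Sgf29 and Wdr5 differed by -0.013 and -0.0095. With array weights Taf6l differed by -0.0053, Supt20 by 0.057, Usp22 by 0.0018, Atxn7 by 0.0012 and Zzz3 by 0.013. With the mean over clusters Atxn7l1 differed by -0.033, and in the dimmest cluster Atxn7l1 and Trrap by -0.13 and 0.030. Without wild type 2 and knockout 4, Supt20, Usp22, Atxn7l2, Zzz3, Wdr5 and Pole3 differed by 0.050, 0.042, 0.073, 0.019, -0.0049 and 0.046. When 1 array was left out, the ranges that crossed 0 were -0.071 to 0.058 for Sgf29, -0.00097 to 0.061 for Supt7l, -0.022 to 0.057 for Wdr5, -0.10 to 0.063 for Pole3, -0.12 to 0.013 for Taf12, -0.083 to 0.084 for Supt20, -0.095 to 0.053 for Usp22, -0.051 to 0.025 for Atxn7, -0.038 to 0.17 for Taf9, -0.035 to 0.044 for Sf3b5, -0.024 to 0.15 for Eny2, -0.20 to 0.020 for Atxn7l2, -0.21 to 0.014 for Zzz3 and -0.090 to 0.015 for Tada2b.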
